A study of Mus musculus with 16 samples.

Results

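The genes described here had a signal that was raised by cordycepin in resting RAW264.7 cells, and no upstream neighbour on the array. A gene was a member when a probe with an NM_ accession had a mean at least 1 higher on the log2 scale in cordycepin than in DMSO in the authors' value table, and when no NM_ probe of another gene lay on the same strand within 50 kb upstream of it. Of 11473 genes with an NM_ accession in that table, 272 had such a raised probe. The neighbour condition kept 77 of them, and the other 195 had a neighbour. Each gene was represented by the brightest of its raised features, by the mean of all 16 arrays.

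RAW264.7 is a macrophage-like line grown from a mouse tumour, and all 4 conditions used this line, kept in low-serum medium for a day before treatment. The groups were DMSO (vehicle for 120 min), cordycepin (20 µM for 120 min), LPS+DMSO (vehicle for 60 min and then 1 µg/ml LPS for 60 min) and LPS+cordycepin (20 µM cordycepin for 60 min and then the same LPS). Each had 4 replicates, collected on separate days from wells of the same plate, and each replicate was hybridised to an array of its own, 16 arrays in all. Since RNA was measured in bulk, fewer cells with a transcript and less of it per cell cannot be told apart.

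Cordycepin is 3′-deoxyadenosine, an adenosine analogue without the hydroxyl group to which the next nucleotide of a growing RNA chain is joined, and it is known as an inhibitor of polyadenylation. The 3′ end of most mRNAs is made by cleavage of the growing transcript some way downstream of a polyadenylation signal, of which AATAAA is the most frequent form, followed by addition of a poly(A) tail. Many genes hold several such signals, and their transcripts can then end at more than 1 place. LPS is a bacterial cell wall component that switches on the inflammatory genes of macrophages.

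The rule read single probes, and other probes of the same genes often gave another value. Of the 77 members, 57 had at least 1 further probe on the array, and 50 had a non-overlapping probe of the same gene upstream of the raised one in the value table. For all NM_ genes in that table the share with such a same-gene pair was 26.3%, and for the raised genes with a neighbour it was 12.3%. At the upstream probe the cordycepin minus DMSO difference lay within 0.5 of 0 in 44 of the 50 genes, and 2 (Asb4 and Agbl3) reached 1. The members are therefore called raised probes below.

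The difference in the rule used only the DMSO and cordycepin arrays, so the 8 LPS arrays served as the test. They were not wholly unused, since the brightest raised feature of a gene was chosen by its mean over all 16 arrays. In 7 members a further probe also rose by 1 or more in cordycepin against DMSO. For Pde4dip, Stmn4 and Gm3448 among them, that probe overlapped the member probe. The raised probes were higher in LPS+cordycepin than in LPS+DMSO in nearly every case, by a median of 1.90 on the log2 scale, against a median of 0.04 over all 23730 probes. In 7 members the signal was well above background with cordycepin alone or with LPS but on no array without cordycepin, and with these at their lower limits the median was 1.89. Of the 77, 70 (90.9%) passed the threshold for a rise by limma (2-fold or more, with an adjusted p under 0.05), and 0 were called lowered. The background was 6.55% of all probes called raised and 1.46% called lowered, and among NM_ probes 3.39% were called raised. Without the minimum fold 74 were higher by limma at an adjusted p under 0.05, where 2601 of the 23730 probes were higher and 1689 lower. At an unadjusted p under 0.05 75 members were higher and 0 lower, and the share of all probes at that threshold was not counted. In 74 members the 4 LPS+cordycepin arrays all lay above the 4 LPS+DMSO arrays, which 12.9% of all probes did. The raised genes with a neighbour gave a like share, 179 of 195 (91.8%), with a median of 2.13. Under quantile normalization the calls over all probes split into 1225 raised and 513 lowered, in place of 1554 and 347.

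**Figure D1:**
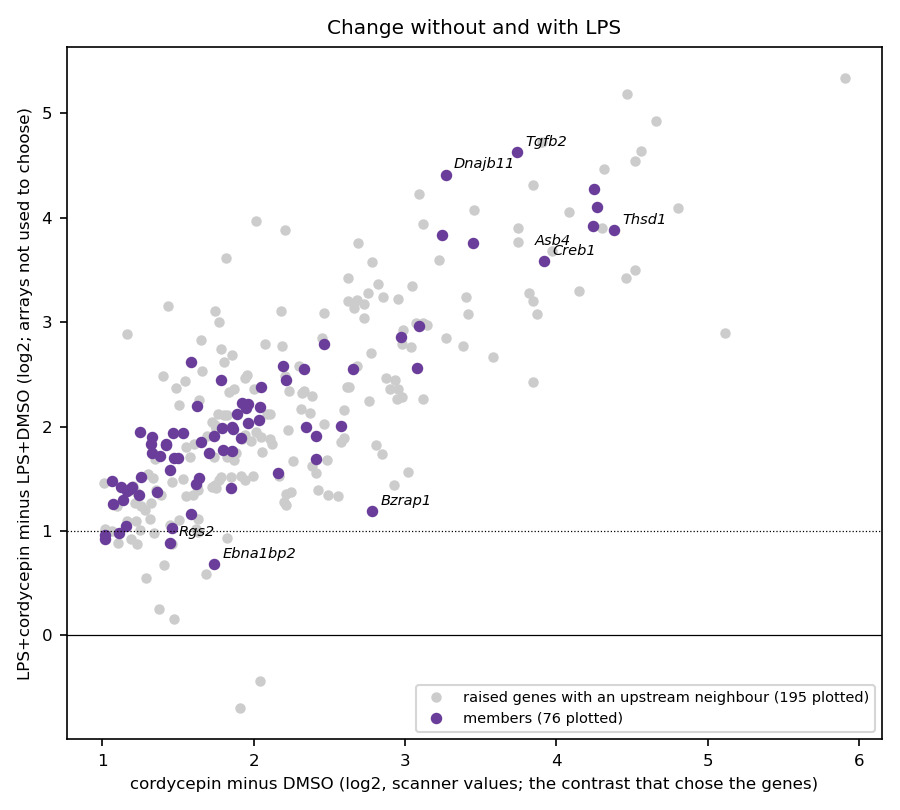
Change by cordycepin without LPS (x axis, log2) and with LPS (y axis, log2) for 76 members (purple) and 195 raised genes with an upstream neighbour (grey), each value a mean of 4 arrays minus a mean of 4. The x axis is the contrast that chose the genes, the dotted line marks a 2-fold rise, and all 76 lie above 0 on the y axis. Git2 is not plotted because its x value is missing, and it was the 1 member below 0 with LPS, at -0.14.

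**Figure D2:**
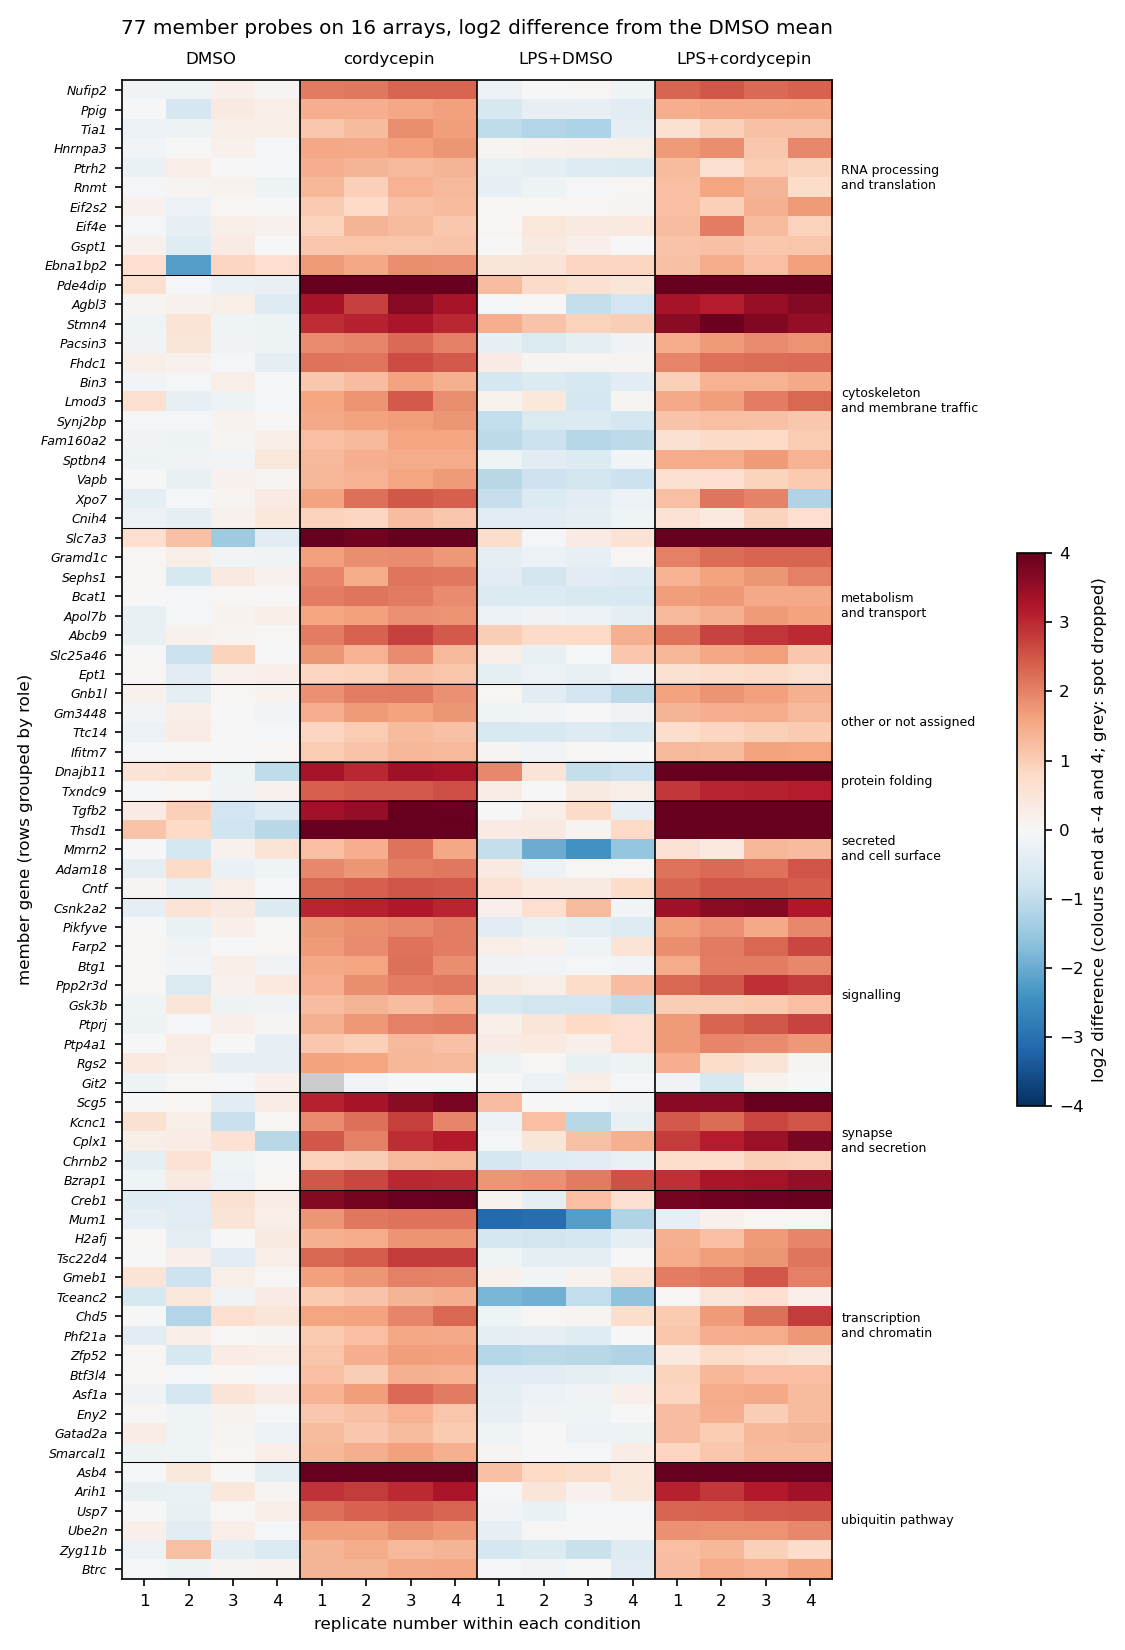
Level of the 77 member probes on the 16 arrays as the log2 difference from the mean of the 4 DMSO arrays, with rows grouped by role and columns by condition and replicate. The cordycepin and LPS+cordycepin columns are red in almost all rows, and Git2, whose grey cell is a dropped spot, is near 0 throughout.

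The rule did not use the position of a probe within its gene. In 42 of the 50 genes with an upstream probe, the member probe rose more than that probe in LPS+cordycepin against LPS+DMSO, called by limma on the per-array difference of both probes with the same threshold, and in 0 it rose less (0 also at an unadjusted p under 0.05). The background was 5.73% of 3018 same-gene pairs called in that direction and 0.961% in the other. Those pairs were not chosen for a raised probe. The raised genes with a neighbour were, and 14 of their 24 pairs (58.3%) were called. Their median pair difference was 1.26, against 1.90 for the members, and 7 of their upstream probes were called raised. The median change was 1.87 at the member probe and -0.02 at the upstream probe, and the probes of a pair were a median of 3.23 kb apart. Their levels could differ widely. In LPS+DMSO the H2afj upstream probe was at 17.44 to 17.72 and its member probe at 10.72 to 11.10. For Hnrnpa3 the upstream probe was the dimmer, at 9.55 to 9.97 against 11.87 to 11.98. An equal gain in intensity is a smaller log2 change at a brighter probe, and gains in intensity were not compared. This test was chosen after the values were seen. The rule asked for a rise at the member probe and put no condition on the other, so the choice itself favoured a larger rise at the member probe. Each pair took the most downstream probe of a gene and its nearest upstream probe. Both probes carried the same accession in 43 pairs, of which 35 were called.

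In those 50 genes 1 upstream probe (Asb4) was called raised and 2 (Creb1 and Rgs2) were called lowered, against 1.03% and 1.89% of the upstream probes of all pairs. Counting every further probe, 75 lay upstream of a member probe without overlap, 61 of them within 10 kb, and 67 changed by less than 0.5 in either direction. Downstream of a member probe lay 2 in the value table, those of Cntf and Tgfb2, and both were called raised. The 8 pairs that were not called were those of Asb4, Xpo7, Smarcal1, Ebna1bp2, Gatad2a, Ttc14, Slc25a46 and Cnih4, with differences of 0.67 to 1.16.

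**Figure D3:**
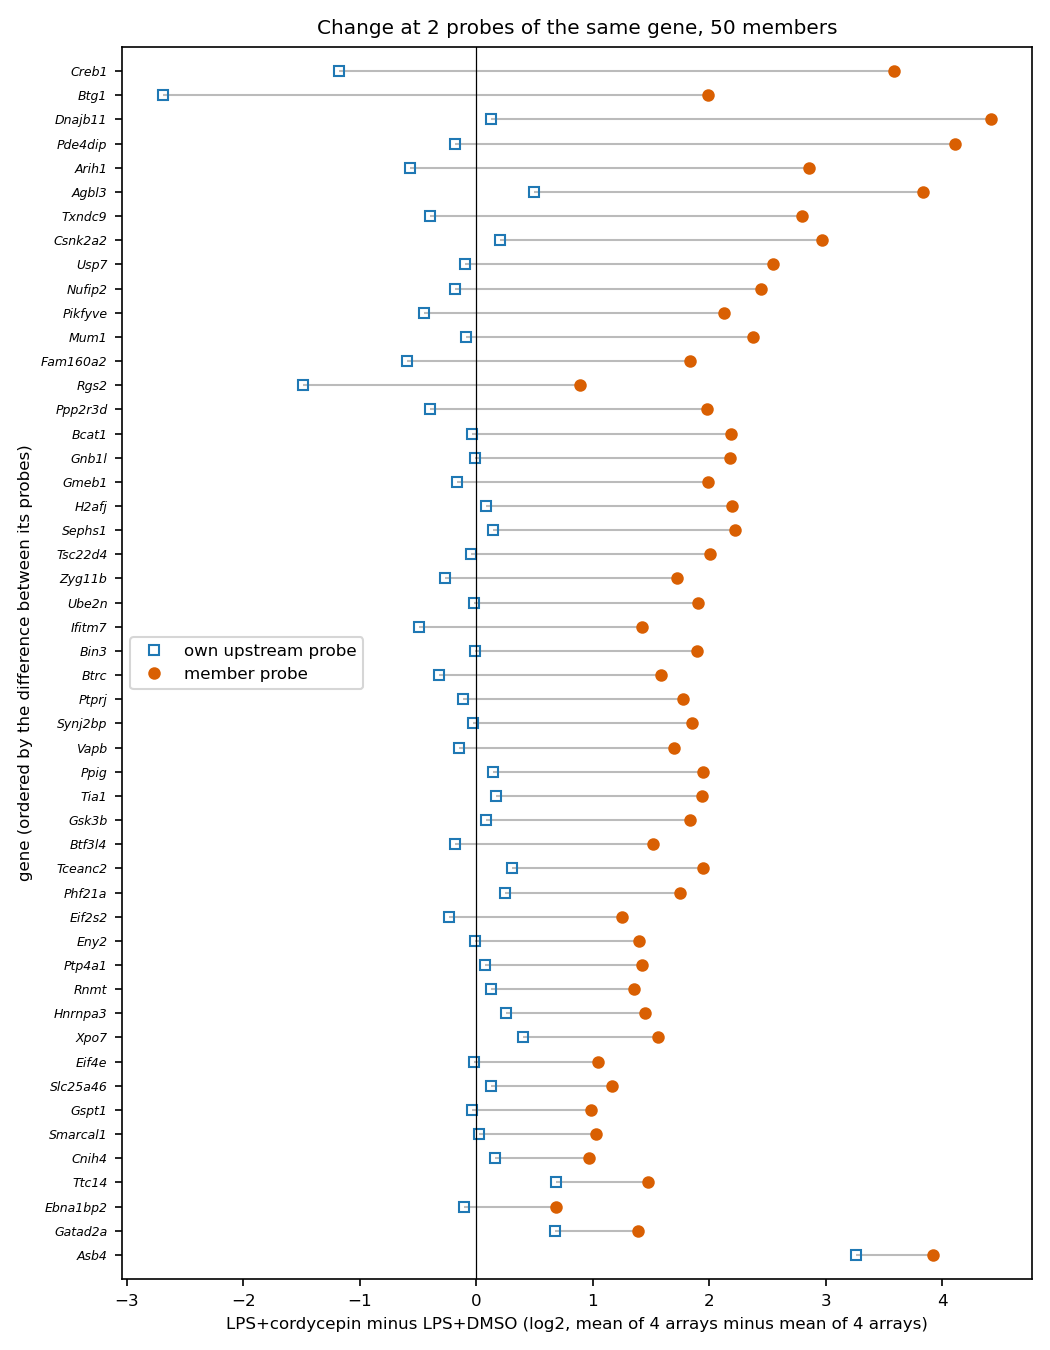
Change in LPS+cordycepin against LPS+DMSO (x axis, log2) at the member probe (orange circles) and at the nearest upstream probe of the same gene (blue squares) for 50 genes, ordered by the difference. Most squares lie near 0 while the circles lie between 0.69 and 4.41, and Asb4 at the bottom has both probes high. The changes plotted are fitted values, those of Agbl3 and Dnajb11 against LPS+DMSO signals not well above background. Others, among them those of Creb1, Mum1, Ppp2r3d and the upstream probe of Asb4, rest in part on such signals.

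**Figure D4:**
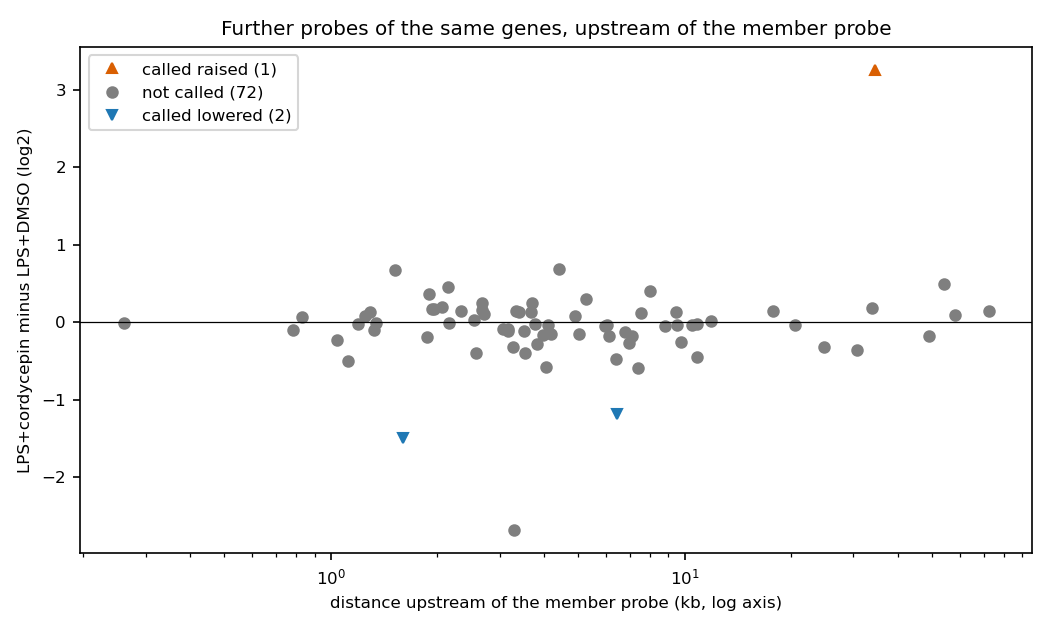
Change in LPS+cordycepin against LPS+DMSO (y axis, log2) of the 75 further probes that lie upstream of a member probe, against their distance from it (x axis, kb, log axis). 1 was called raised, 2 were called lowered and 72 were not called.

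The sequences of 5 genes are shown by sequence, since each has a member probe and an upstream probe that moved apart. Creb1, Usp7, Rgs2 and Btg1 follow the rule for named genes, and Gsk3b was added after its values were seen because its member probe holds AATAAA. Each line gives 30 of the 60 bases as the array files list them, 5′ to 3′, around AATAAA in capitals where the probe holds it and otherwise from the first base.
Creb1 member probe: tgagaaatttcaAATAAAtggaatcataat
Creb1 upstream probe: ttcattcagttctgtgtgttcagcagtttg
Gsk3b member probe: ggtcatgtgactgctgcttcAATAAAgaca
Gsk3b upstream probe: tgtgtacttatccttaggatttgaagactt
Usp7 member probe: cctttggcctgtaaatgagaagttacaggt
Usp7 upstream probe: cagtgtacaccaattctcctgtatattgcc
Rgs2 member probe: ctatttgccaaaagaaatagtctttatgac
Rgs2 upstream probe: atcctcggttcttggagtccgaattctacc
Btg1 member probe: gcagctttaaatcagtcggatttatgaata
Btg1 upstream probe: gagtctttcccacaaaccaccatctatttt

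On mm9, the build of the array files, the Creb1 member probe lies at chr1:64651061-64651120 and its upstream probe at chr1:64644633-64644692, both on the plus strand. The Gsk3b probes lie on the plus strand at chr16:38246094-38246153 and chr16:38241177-38241236. Those of Usp7 lie on the minus strand at chr16:8688933-8688992 and chr16:8689715-8689774. The Rgs2 probes are on the minus strand at chr1:145847227-145847286 and chr1:145848830-145848889, and the Btg1 probes on the plus strand at chr10:96085358-96085417 and chr10:96082071-96082130. Whether a probe falls in an exon, an intron or a UTR was not analysed here, as no mm9 annotation was used.

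The letters AATAAA, searched on the probe's own strand, were in 19 of the 77 member probes (24.7%) and in 4 of the 50 upstream probes (8.0%). They were in 15.0% of the 15117 NM_ probes of the same length in the value table. Over all 3018 same-gene pairs they were in 20.9% of the downstream and 5.67% of the upstream probes, and among raised genes with a neighbour in 24.6% of probes. The member probes of Creb1, Bzrap1, Abcb9, Scg5, Ppp2r3d and Cnih4 held them among the named genes. The letters are a description of the probe, not of a site in use.

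Creb1 encodes a transcription factor activated by cAMP signalling, and its 2 probes moved in opposite directions. The member probe was at 4.03, 4.06, 5.10 and 4.81 in DMSO (scaled log2 intensity, replicates 1 to 4), at 8.17, 8.32, 8.46 and 8.72 in cordycepin, at 4.63, 4.11, 5.70 and 5.14 in LPS+DMSO and at 8.31, 8.39, 8.44 and 8.79 in LPS+cordycepin. The groups with and without cordycepin did not overlap, and only 1 of the DMSO and 2 of the LPS+DMSO arrays were well above background there. With LPS the member probe rose by 3.58 ± 0.30 (log2, SE, adjusted p = 6.0e-07), while the upstream probe, 6.37 kb away, fell by 1.18 ± 0.22 (adjusted p = 0.0013). The difference between the changes was 4.76 ± 0.37 (adjusted p = 3.3e-07). In LPS+cordycepin replicate 2 the upstream probe was at 6.87, below the other 3 arrays at 7.93 to 8.08.

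Usp7, a deubiquitinating enzyme that acts on Mdm2 and p53, had probes less than 1 kb apart that also moved apart. The member probe was at 7.88, 7.57, 7.91 and 8.08 in DMSO, at 10.07, 10.21, 10.31 and 10.18 in cordycepin, at 7.74, 7.59, 7.80 and 7.78 in LPS+DMSO and at 10.19, 10.22, 10.33 and 10.35 in LPS+cordycepin. The change with LPS was 2.55 ± 0.10 (adjusted p = 7.0e-10). At the upstream probe, 0.723 kb away, it was -0.09 ± 0.10 (adjusted p = 0.62). All 16 values of that probe lay between 12.67 and 13.19.

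Rgs2 and Btg1 were the members found among the immediate early genes, the genes that respond to a stimulus without new protein synthesis. Rgs2, a regulator that speeds GTP hydrolysis by Gq proteins, was at 6.57, 6.82, 6.50 and 6.57 at the member probe in LPS+DMSO and at 8.25, 7.52, 7.33 and 6.91 in LPS+cordycepin. The groups did not overlap, but the change of 0.89 ± 0.24 (adjusted p = 0.015) was under 2-fold. Without LPS+cordycepin replicate 4 it was 1.09 and was called. At the upstream probe the 4 LPS+DMSO arrays lay between 15.01 and 15.17 and the LPS+cordycepin arrays between 13.33 and 13.81, a fall of 1.49 ± 0.16 (adjusted p = 5.2e-06). The pair differed by 2.37 ± 0.22 (adjusted p = 1.7e-06).

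Btg1, an antiproliferative protein that binds mRNA deadenylases, was at 8.11, 8.13, 8.17 and 8.15 at the member probe in LPS+DMSO and at 9.74, 10.29, 10.29 and 10.18 in LPS+cordycepin. The rise was 1.99 ± 0.15 (adjusted p = 2.6e-07). Its upstream probe was at 14.05, 14.37, 14.21 and 14.22 in LPS+DMSO and at 13.50, 13.40, 5.69 and 13.50 in LPS+cordycepin, so that the mean rested on replicate 3. The pair difference was 4.67 ± 1.31 (adjusted p = 0.025) with that array and 2.67 ± 0.24 (adjusted p = 3.4e-06) without it. Without it the upstream probe changed by -0.74 ± 0.15 (adjusted p = 0.0034), and with it by -2.68 ± 1.26 (adjusted p = 0.19).

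**Figure D5:**
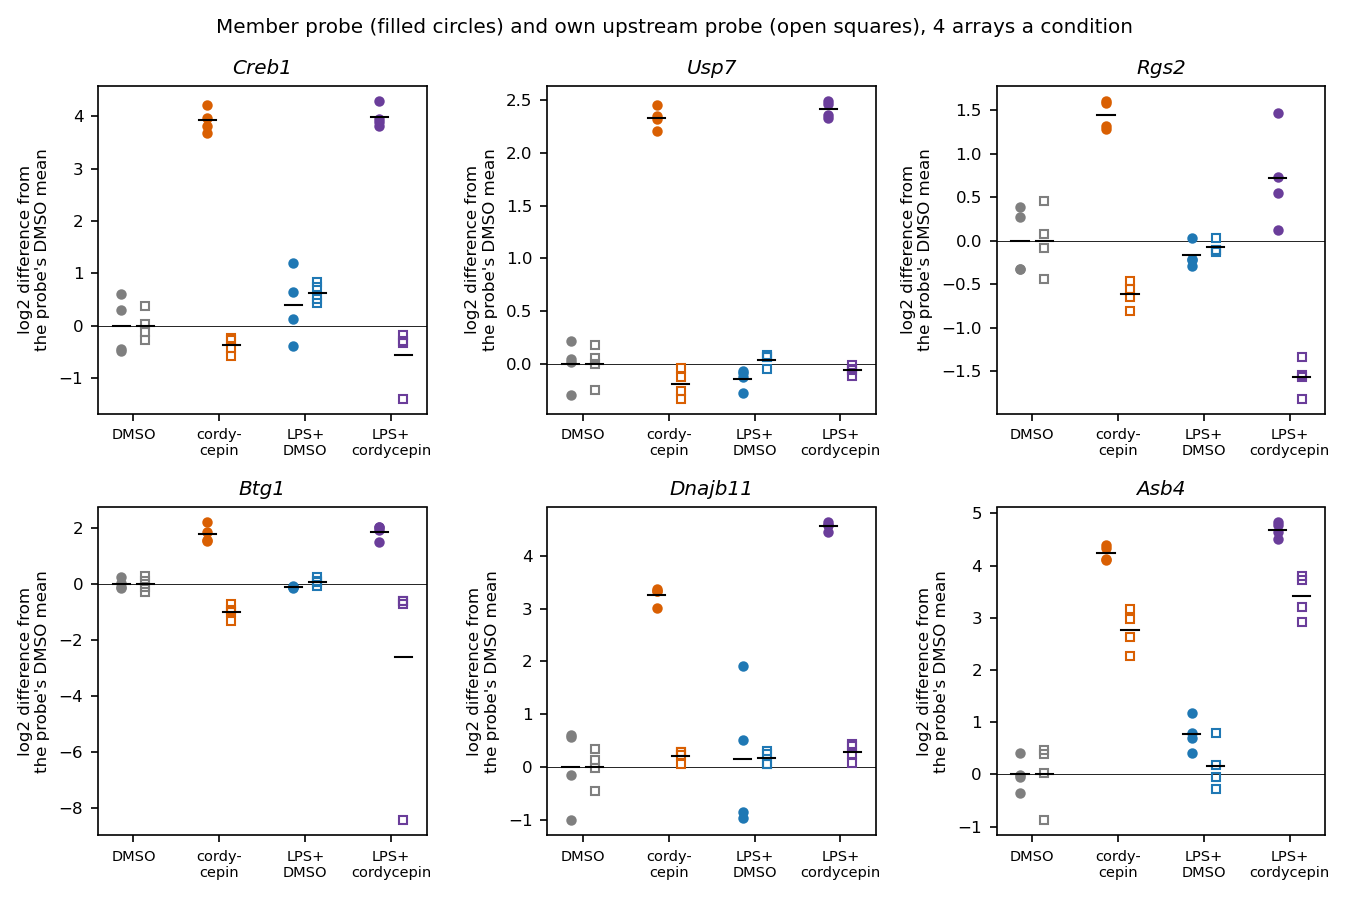
Member probe (filled circles) and own upstream probe (open squares) of 6 genes on each array, as the log2 difference from that probe's own DMSO mean, with a bar at the mean of the 4 arrays. In Creb1, Usp7, Rgs2 and Btg1 the circles of both cordycepin conditions lie above 0 while the squares lie below it, whereas in Asb4 both rise.

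The members were grouped by role from general knowledge, after they were known. Over all members 90.9% were called raised in LPS+cordycepin against LPS+DMSO, and whether any role differed from that share was not tested. Transcription and chromatin was the largest role, with 14 of 14 called raised in LPS+cordycepin against LPS+DMSO and a median change of 1.76. Besides Creb1 it held H2afj (H2aj in RefSeq), a histone H2A variant, which rose by 2.19 ± 0.17 (adjusted p = 3.3e-07), while its upstream probe 1.19 kb away changed by 0.08 ± 0.15. Its member probe was at 10.80, 10.72, 10.76 and 11.10 in LPS+DMSO and at 12.90, 12.68, 13.17 and 13.41 in LPS+cordycepin, with no overlap. Zfp52, a zinc finger protein, rose by 1.70 ± 0.18 (adjusted p = 6.6e-06).

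RNA processing and translation had 8 of 10 called, with a median of 1.36, and no upstream probe of its 9 pairs was called raised. Hnrnpa3, an RNA-binding protein of the nucleus, was at 11.87, 11.93, 11.96 and 11.98 in LPS+DMSO and at 13.44, 13.61, 12.82 and 13.66 in LPS+cordycepin, a rise of 1.45 ± 0.15 (adjusted p = 3.7e-06). Its 6 further probes, which start 2.68 to 6.79 kb upstream, changed by -0.47 to 0.25 and none was called. Rnmt, which methylates the mRNA cap, rose by 1.35 ± 0.16 (adjusted p = 1.8e-05), and Gspt1, a translation termination factor, by 0.99 ± 0.14 (adjusted p = 9.6e-05), just under 2-fold. Ebna1bp2, a ribosome biogenesis protein, changed by 0.69 ± 0.49 (adjusted p = 0.43). Its 4 LPS+cordycepin arrays (7.78 to 8.25) were all above its LPS+DMSO arrays (7.09 to 7.49). The fit took its spread from all 4 conditions, and 1 DMSO array was at 4.41 against 7.28 to 7.47 for the other 3.

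The ubiquitin pathway had 6 of 6 called, with a median of 2.23. Asb4, a substrate receptor of ubiquitin ligases, was the 1 of the 50 genes whose upstream probe passed the 2-fold call. Without the minimum fold 3 upstream probes were higher and 6 lower by limma at an adjusted p under 0.05. Besides Asb4, the higher ones were those of Ttc14 (0.68, adjusted p = 0.0013) and Gatad2a (0.68, adjusted p = 0.0091). The lower ones were those of Creb1, Rgs2, Fam160a2, Arih1, Ifitm7 and Txndc9. The share over the upstream probes of all pairs was not counted at that threshold. The Asb4 member probe was at 7.31, 6.92, 6.82 and 6.54 in LPS+DMSO and at 10.64, 10.90, 10.96 and 10.78 in LPS+cordycepin, a rise of 3.92 ± 0.17 (adjusted p = 1.0e-09). Its upstream probe, 34.4 kb away, was well above background in 1 of 4 LPS+DMSO replicates, in 0 of 4 DMSO replicates and in all 4 of LPS+cordycepin. Its fitted change of 3.26 ± 0.32 (adjusted p = 2.3e-06) and the pair difference of 0.67 ± 0.30 (adjusted p = 0.19) therefore rest on LPS+DMSO values near background. Ube2n, an enzyme that conjugates ubiquitin chains in Toll-like receptor signalling, rose by 1.91 ± 0.14 (adjusted p = 1.0e-07), and its upstream probe changed by -0.02 ± 0.23.

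Signalling proteins had 8 of 10 called, with a median of 1.91, the exceptions being Rgs2 and Git2. Gsk3b, a kinase of the Wnt and insulin pathways, was at 7.93, 7.80, 7.77 and 7.54 in LPS+DMSO and at 9.51, 9.52, 9.59 and 9.75 in LPS+cordycepin at the member probe, a rise of 1.83 ± 0.14 (adjusted p = 2.3e-07). At its upstream probe 4.86 kb away the change was 0.08 ± 0.13. The receptor tyrosine phosphatase Ptprj rose by 1.78 ± 0.21 (adjusted p = 1.4e-05) with -0.11 ± 0.25 upstream, and Ppp2r3d, a regulatory subunit of protein phosphatase, by 1.98 ± 0.25 (adjusted p = 2.5e-05, detected above background in 2 of 4 LPS+DMSO replicates) with -0.39 ± 0.25 upstream. The Ppp2r3d probe is placed on a chromosome 9 contig that is not anchored, so its neighbours could be read only within that contig.

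Cytoskeleton and membrane traffic had 11 of 13 called, with a median of 1.89. Pde4dip, a scaffold of the centrosome and Golgi, was at 6.44, 5.98, 5.81 and 5.68 in LPS+DMSO and at 10.35, 10.03, 9.94 and 10.02 in LPS+cordycepin, a rise of 4.11 ± 0.21 (adjusted p = 5.9e-09). Like its member probe, a probe shifted by 8 bases was detected above background in 3 of 4 LPS+DMSO replicates, and it rose by 4.73 ± 0.28, whereas a probe 49.0 kb upstream, of another transcript, changed by -0.18 ± 0.14. Stmn4, a tubulin-binding stathmin, was at 8.90, 8.57, 8.38 and 8.44 in LPS+DMSO and at 11.06, 11.36, 11.16 and 10.96 in LPS+cordycepin, a rise of 2.56 ± 0.17 (adjusted p = 4.8e-08). Cnih4, a cargo receptor of the secretory pathway, changed by 0.96 ± 0.16 (adjusted p = 4.3e-04). Xpo7, a nuclear transport receptor named after its values were seen, was not called, at 1.56 ± 0.53 (adjusted p = 0.058), with LPS+cordycepin replicate 4 at 8.16 and the others at 10.58 to 11.51, and without that replicate it was called.

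Metabolism and transport had 7 of 8 called, with a median of 1.97. Abcb9, a peptide transporter of lysosomes, was at 11.61, 11.38, 11.42 and 12.05 in LPS+DMSO and at 12.80, 13.32, 13.48 and 13.60 in LPS+cordycepin, a rise of 1.69 ± 0.20 (adjusted p = 1.5e-05). Ept1 (Selenoi in RefSeq), an enzyme of phospholipid synthesis, changed by 0.92 ± 0.13 (adjusted p = 7.8e-05), under 2-fold.

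Some member probes gave no signal well above background without cordycepin. In 7 members (Slc7a3, Thsd1, Tgfb2, Scg5, Agbl3, Dnajb11 and Kcnc1) this held on all DMSO and LPS+DMSO arrays, while all cordycepin and LPS+cordycepin arrays were well above background. For these a fold is given as a limit, the LPS+cordycepin mean against the LPS+DMSO mean after each LPS+DMSO array was set to the lowest signal well above background on it where the probe was lower. Tgfb2, a growth factor of the TGF-β family, was at 8.06, 8.41, 8.70 and 9.01 in LPS+cordycepin, at least 10.1-fold higher (adjusted p = 1.6e-07). A probe 1.80 kb further downstream, in the same state of detection, was at least 5.21-fold higher (adjusted p = 2.9e-06).

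Slc7a3, a carrier of cationic amino acids, was at 8.08, 8.69, 8.80 and 8.82 in LPS+cordycepin, at least 10.5-fold higher (adjusted p = 2.7e-06). Dnajb11, an endoplasmic reticulum co-chaperone, was at 7.97, 7.91, 7.91 and 7.79, at least 6.43-fold higher (adjusted p = 1.2e-05), and its upstream probe, 7.49 kb away and between 12.79 and 13.69 on all arrays, changed by 0.13 ± 0.15. Scg5, a chaperone of neuroendocrine cells, was at least 6.28-fold higher (adjusted p = 2.8e-07), and Thsd1, a membrane protein of endothelial cells, at least 5.55-fold (adjusted p = 4.3e-06). Agbl3, a tubulin deglutamylase, was at least 3.86-fold higher (adjusted p = 4.6e-08), and the potassium channel Kcnc1 at least 3.38-fold (adjusted p = 2.1e-04).

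The remaining roles were smaller. All 5 synapse and secretion genes were called, with a median of 2.55, among them the nicotinic receptor subunit Chrnb2, which rose by 1.30 ± 0.18 (adjusted p = 6.2e-05). All 5 secreted and cell surface genes were called, among them Adam18, a sperm surface protein, which rose by 2.21 ± 0.21 (adjusted p = 1.6e-06). Both protein folding genes and the 4 without a role were called. Gm3448, of the latter, was at 11.29, 11.34, 11.48 and 11.32 in LPS+DMSO and at 12.83, 12.91, 12.96 and 12.76 in LPS+cordycepin, a rise of 1.51 ± 0.10 (adjusted p = 5.1e-08).

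The comparisons of LPS with no LPS share arrays with the rule, so they are given without a test. In LPS+DMSO minus DMSO 2 members (Bzrap1 at 2.06 and Stmn4 at 1.13) were at least 2-fold higher, where 2.05% of all probes were, and 5 (Mum1, Mmrn2, Tceanc2, Zfp52 and Fam160a2) were at least 2-fold lower, where 2.88% were. Bzrap1 (Tspoap1 in RefSeq), a scaffold of synaptic vesicle release, was at 8.28, 8.81, 8.22 and 8.53 in DMSO, at 10.93, 11.12, 11.48 and 11.46 in cordycepin, at 10.24, 10.29, 10.55 and 11.01 in LPS+DMSO and at 11.38, 11.72, 11.78 and 11.98 in LPS+cordycepin. It was thus higher than in DMSO under each treatment, and cordycepin added 1.19 ± 0.19 (adjusted p = 3.4e-04) in LPS-treated cells.

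Mum1 (Pwwp3a in RefSeq), a chromatin protein named after its values were seen, went the other way with LPS. It was at 6.99, 6.87, 7.82 and 7.54 in DMSO, at 4.21, 4.26, 5.10 and 6.11 in LPS+DMSO, at 9.06, 9.41, 9.47 and 9.48 in cordycepin and at 6.98, 7.48, 7.38 and 7.36 in LPS+cordycepin. Its own upstream probe changed by -0.09 ± 0.13 in LPS+cordycepin against LPS+DMSO, with a pair difference of 2.46 ± 0.33 (adjusted p = 7.8e-05). In LPS+DMSO the member probe was well above background in replicates 3 and 4 alone, so the fall with LPS and the pair difference rest in part on values at background. Between LPS+cordycepin and cordycepin 2 members (Dnajb11 at 1.30 and Tgfb2 at 1.07) were at least 2-fold higher and 2 (Mum1 at -2.06 and Xpo7 at -1.14) at least 2-fold lower, each direction holding 1.77% of all probes. The Xpo7 value rests on LPS+cordycepin replicate 4, at 8.16. Its other LPS+cordycepin arrays were at 10.58 to 11.51, and its cordycepin arrays at 10.97 to 11.85.

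The size of the rise without LPS chose the members and is only a description. It ran from 1.01 to 3.68 in the value table, and by the same fit 4.88% of all probes were called raised and 1.03% lowered in cordycepin against DMSO. Cnih4 (1.01), Gspt1 (1.01) and Rnmt (1.02) were just inside the threshold, and 2010002M12Rik (0.99), Fgf7 (0.96) and Xkrx (0.96) just outside it. In 74 members the cordycepin and DMSO arrays did not overlap in that table. These are the arrays that chose the members, and the share over all probes was not counted. Leaving out 1 of these 8 arrays brought 16 members under the threshold, 15 of them to no less than 0.64.

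The exception was Git2, a GTPase-activating protein of Arf proteins, whose place among the members rested on 1 spot. In the value table it was at 18.66 in cordycepin replicate 1 and at 10.82, 10.89 and 10.90 in the other 3, against 10.65 to 11.13 in DMSO. The scanner software had marked that spot as an outlier, and without it the difference was -0.01. With LPS Git2 changed by -0.14 ± 0.16 (adjusted p = 0.67).

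The neighbour condition rests on the probes of the array. The nearest upstream NM_ probe of another gene was a median of 114 kb away, but in 16 members it was 50 to 60 kb away (Stmn4 at 50.2 kb, Bzrap1 at 50.3 kb). Probes without an NM_ accession were not counted by the rule, and 20 members had at least 1 such probe within 50 kb upstream. Of 13 of these in the value table, upstream of 9 members, 7 were called raised in LPS+cordycepin against LPS+DMSO, where 6.55% of all probes were. They included both of those upstream of Gm3448 (1.41 and 2.67) and of Bzrap1 (1.79 and 1.56). Also among them was a probe of the coding gene Zfp91, 2.69 kb upstream of Cntf, at 1.02 ± 0.17 (adjusted p = 5.3e-04 by limma). Cntf thus had a raised coding neighbour that the rule did not count. In the RefSeq gene table (GRCm38.p6), 24 of the 62 members that could be placed (38.7%) had a coding gene on the same strand within 50 kb upstream of their start, against 48.1% of all coding genes.

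The 6 lists of regulated genes checked beside the members held 221 of the 11473 NM_ genes (1.93%) and 3 of the 77 members (3.90%), namely Btg1, Rgs2 and Tgfb2. Of 53 immediate early gene probes 3 were called raised and 7 lowered in LPS+cordycepin against LPS+DMSO. Of 67 NF-κB target probes 0 were called raised by limma (2 at an unadjusted p under 0.05) and 18 lowered, and none was a member. The p53 target (29 probes, 3 raised, 1 lowered), ATF4 and stress (32 probes, 0 raised, also 0 at an unadjusted p under 0.05, and 3 lowered) and interferon-stimulated (38 probes, 2 raised, 3 lowered) lists held no member either. Of 81 cytokine and growth factor probes 14 were raised and 9 lowered, with Tgfb2 as a member.

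The arrays had 37.1 to 51.2% of spots well above background and 108 to 237 outlier spots each. All 9 macrophage markers were detected on the 16 arrays, and so were Cd3e of 3 T cell and Kdr of 3 endothelial markers. Of the B cell (3), fibroblast (4) and epithelial (4) markers, none was detected on all 16. Of the members, 53 were well above background on all arrays, and 54, 75, 55 and 73 on all 4 arrays of DMSO, cordycepin, LPS+DMSO and LPS+cordycepin.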

How the data were processed

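RNA from RAW264.7 cells was measured on 16 Agilent 1-colour mouse arrays. The authors deposited scanner files of processed signal intensity, background-corrected by Feature Extraction (10.7.3.1 per the file headers, 10.10.1.1 per the labels), and a value table of log2 intensities that the authors had normalized between arrays by a method not given in the sources used here. The labels and the paper name different RNA extraction kits. Members were chosen from the value table. The members and gene lists were chosen with earlier results of these data known.

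Levels are log2 of the processed signal minus each array's 75th percentile, taken over 18148 probes that every array showed well above background, put back on a common scale. Outlier spots were left out, spots of 1 probe were averaged, and no spot was saturated. All 23730 probes of the value table were fitted with limma 3.58.1 (R 4.3.3) on 4 condition means, with Benjamini-Hochberg adjustment, and calls needed a 2-fold change with an adjusted p under 0.05. Same-gene pairs (3018) were tested in the same way on per-array differences, a test added after the data were seen. On simulated data for LPS+cordycepin against LPS+DMSO (23730 probes) 87 of 100 changes of 1.5 and 100 of 100 changes of 3 on the log2 scale were recovered, with 2 false calls. The simulated noise was normal and independent between arrays, unlike the residuals described below, so these counts hold for that setting only.

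Named genes were the members with the 6 largest rule differences, the 4 brightest, the 8 with the largest rise and any with a fall among those called, the 4 closest to 0, the 3 just inside the threshold, and members of the gene lists. Any other gene named was chosen after its values were seen. Replicate numbers mark culture days, so they pair the samples. Residuals of samples with the same number correlated with a mean r of 0.22 (0.03 to 0.42), those of other numbers on the same slide at 0.21 and those on the other slide at -0.21. Alternatives covered scaling, background correction, filters, blocks, slides, single arrays and the rule. The number of arrays limits the precision. All 77 accessions matched RefSeq, and coordinates are those of the array files (mm9). Python 3.11.15, numpy 2.4.6, pandas 2.3.3 and matplotlib 3.10.9 were used.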

Additional observations from a re-analysis of the deposited data

Results flagged for a closer look

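Of 163 groups of 4 arrays tested among the named genes and the upstream probes shown, 13 (7.98%) had 1 array whose gap to its nearest neighbour exceeded Dixon's critical share of the range, where chance gives about 1 in 20. At member probes, the array that stood apart was DMSO replicate 2 for Adam18 (7.67, others 6.55 to 6.73), Ebna1bp2 (4.41, others 7.28 to 7.47), Stmn4 (8.0, others 7.24 to 7.27) and Gsk3b (9.03, others 8.34 to 8.40). It was DMSO replicate 4 for Agbl3 (3.24, others 3.88 to 4.01). It was LPS+DMSO replicate 1 for Scg5 (5.10, others 3.72 to 3.83) and Ube2n (9.36, others 9.70 to 9.73).

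In cordycepin it was replicate 2 for Dnajb11 (6.34, others 6.67 to 6.71) and replicate 1 for Mum1 (9.06, others 9.41 to 9.48). At upstream probes it was LPS+cordycepin replicate 2 for Creb1 (6.87, others 7.93 to 8.08) and replicate 3 for Btg1 (5.69, others 13.40 to 13.50). It was LPS+DMSO replicate 4 for Usp7 (12.96, others 13.06 to 13.08) and replicate 1 for Rgs2 (15.17, others 15.01 to 15.04).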

How the results depend on the processing

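Of the 77 members, 63 (normexp background) to 74 (no minimum fold) were called raised over the alternatives and 0 lowered, with 68 to 73 when arrays were left out. Members that rose more than their upstream probe numbered 40 to 43 when arrays were left out, and all probes called 1355 to 1622 raised and 314 to 385 lowered. The number of such pairs was 39 by quantile normalization, in the authors' values, with normexp and within slide 2. With the replicate number as a block, 70 members, 42 pairs and 1589 raised and 363 lowered probes were called. The median change of the members was 1.72 by quantile normalization, 1.44 in the authors' values and 1.43 with normexp, and 1.84 to 1.98 when arrays were left out. All probes called raised were 925 in the authors' values, 867 with normexp and 2601 with no minimum fold, and those lowered 153 with normexp and 1689 with no minimum fold. The 75th percentile over all probes moved the median of all probes from 0.04 to -0.09. The number of members was 48 with a 100 kb window, 113 with 25 kb, 36 when the brightest feature was taken first, 87 with neighbours in the value table only, 135 by scanner differences and 35 at a difference of 1.5. Among the named genes the member probe call was lost for Rnmt in the authors' values (0.91) and with normexp (0.95) and for Kcnc1 within slide 1 (1.87, adjusted p = 0.055), and no direction was reversed among called values. The pair call of Btg1 was lost with the LPS arrays alone (adjusted p = 0.14 by limma), within slide 2 and in several fits without an array. Those of Rnmt and Gspt1 were lost by quantile normalization, in the authors' values and with normexp. Agbl3 lost its pair call within slide 1 and Hnrnpa3 within slide 2, while Asb4 gained 1 in the authors' values and with normexp. The cause was not tested.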
